A study of Mus musculus with 16 samples.

Results

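The 10 mRNAs described here encode the peptide hormones, the serotonin-making enzyme and the secretory granule proteins by which enteroendocrine cells of the colon are recognised. They are Chga, Chgb, Gcg, Pyy, Insl5, Cck, Sst, Nts, Tac1 and Tph1, chosen by gene name, and each matched 1 of the 45513 genes counted in the files. All 10 passed the filter on low counts, as did 15841 genes in all.

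Colons came from 8 mice of the genotype Atoh1(WT)CreERT2; Rosa26tdTom/+, on a C57BL/6 background. In these animals CreERT2 is read from the Atoh1 locus, downstream of the coding sequence of Atoh1 on both alleles, so tamoxifen lets Cre act only in cells that express Atoh1, and 1 allele of the Rosa26 reporter then marks the cell and its progeny with tdTomato for good. All 8 mice received tamoxifen, 1 mg per day on 3 days per the labels and the study's methods for the secretory signature (its methods on RNA sequencing give 3 mg, with collection a day later). Males and females aged 8 to 16 weeks were used in the study. Live EpCAM+ epithelial cells of each mouse were divided by flow sorting on the reporter, so the tdTom+ and tdTom− groups shared all alleles and the treatment. Each mouse therefore gave 2 libraries. The mouse labels fall into 3 number series, called here mice 1 to 3, mouse 4 and mice 5 to 8. Samples of small intestine and of other Atoh1 alleles are not analysed here.

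Enteroendocrine cells are the scattered hormone-secreting cells of the gut epithelium. Like goblet cells they arise from Atoh1-expressing secretory precursors, but they then switch on Neurog3 and a further set of transcription factors. Hormone precursors are packed with granins into dense-core granules, cleaved there and released at the basal side of the cell. In the colon, L cells make glucagon-like peptides, PYY and INSL5, enterochromaffin cells make serotonin and often substance P, and rarer D cells make somatostatin.

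Because the label is driven from the locus of a basic helix-loop-helix factor, and such factors bind E-boxes (CANNTG, which reads the same on both strands), the 250 bases before the RefSeq start sites of the members were searched for that word. Windows were found for all 10 genes, 13 in all, with GRCm38.p6 coordinates. The 4 windows below are shown because Tph1, Chga and Nts had the lowest tdTom+ levels relative to tdTom−, while Gcg kept more than 50% of its tdTom− level. All 4 lie outside the gene spans of the deposited files. Capitals mark each CANNTG word, and each sequence is written 5′ to 3′ towards the start site.
Chga (chr12:102554691-102554940, plus strand): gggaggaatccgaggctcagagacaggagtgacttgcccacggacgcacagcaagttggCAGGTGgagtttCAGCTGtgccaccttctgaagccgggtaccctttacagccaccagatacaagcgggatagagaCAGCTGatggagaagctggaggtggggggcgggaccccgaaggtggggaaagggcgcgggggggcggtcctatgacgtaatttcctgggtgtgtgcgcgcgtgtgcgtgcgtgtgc
Nts (chr10:102490419-102490668, minus strand): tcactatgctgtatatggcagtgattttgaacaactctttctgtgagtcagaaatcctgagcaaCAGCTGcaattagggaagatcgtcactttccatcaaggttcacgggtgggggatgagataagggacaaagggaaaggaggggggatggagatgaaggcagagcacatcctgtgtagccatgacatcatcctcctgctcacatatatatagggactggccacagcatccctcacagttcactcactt
Gcg (chr2:62483654-62483903, minus strand): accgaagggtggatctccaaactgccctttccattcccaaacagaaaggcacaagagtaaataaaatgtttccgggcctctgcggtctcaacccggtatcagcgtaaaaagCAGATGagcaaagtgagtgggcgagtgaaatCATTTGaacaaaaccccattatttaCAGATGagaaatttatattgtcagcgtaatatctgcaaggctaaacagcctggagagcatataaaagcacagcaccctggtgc
Tph1 (chr7:46672538-46672787, minus strand): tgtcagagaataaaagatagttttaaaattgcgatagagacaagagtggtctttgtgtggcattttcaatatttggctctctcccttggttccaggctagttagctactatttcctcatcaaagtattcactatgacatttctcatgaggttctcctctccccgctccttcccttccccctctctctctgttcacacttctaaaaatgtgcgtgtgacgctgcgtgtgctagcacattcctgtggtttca
At least 1 CANNTG word stood before a start site of 9 of the 10 members, and 66.2% of all 32851 windows of this length hold one. Neither Tph1 window had any. The word CAGCTG, itself an E-box, occurred in the windows of 2 members, Chga and Nts, and in 13.0% of all windows. CAGATG or its reverse complement CATCTG, also E-boxes, stood in a window of 4 members, Gcg, Insl5, Cck and Tac1, and in 14.4% of all windows. These are matches of letters only, and the windows shown were picked with the expression values known. Members are counted per gene, and Pyy, Insl5 and Tph1 have 2 windows each, whereas the shares are per window. The units differ, so the member counts cannot be set directly against the shares.

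Depth was similar in all libraries but one. Total counts ran from 16482530 to 24218367 in tdTom+ samples and from 18318172 to 45791503 in tdTom− samples, the largest being the tdTom− sample of mouse 4, with no other tdTom− sample above 20668605. A floor of 3 counts was then at most 0.182 per 1e6 counts of an unscaled library, a limit that covers counting error only. Mitochondrial genes took 3.74 to 9.97% of the counts in tdTom− libraries and 2.23 to 6.92% in tdTom+ libraries, and their share was lower in the tdTom+ library of all 8 mice. The part of that share in the differences below was not tested. Levels are given as counts per 1e6 counts of the TMM-scaled library (CPM). Atoh1, whose locus drives the label, was at 5.70 ± 1.67 CPM (SD, n = 8) in tdTom− cells and 132 ± 19.3 CPM in tdTom+ cells, and the sorted populations thus matched their labels in all 8 mice. The 8 goblet cell markers were all higher in tdTom+ cells and summed to 49298 to 104849 CPM there against 2243 to 8750 CPM in tdTom− cells. The 8 absorptive cell markers were all lower, at 878 to 1146 CPM against 6971 to 13485 CPM. Mean levels of the absorptive markers in tdTom+ cells were 2.77% (Aqp8) to 28.3% (Slc26a2) of those in tdTom− cells, with a median of 5.09%.

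Which enteroendocrine mRNAs went with the Atoh1 label, and which with its absence, was asked gene by gene within mice. Of the 10 members, 9 were lower in tdTom+ cells and none was higher, by edgeR's quasi-likelihood test with the mouse as a block and a Benjamini-Hochberg adjusted p under 0.01. Of all genes tested, 28.9% were lower in tdTom+ cells and 28.4% were higher. Those 9 were lower in the tdTom+ sample of all 8 mice, which held for 26.0% of all genes tested. Tac1 was the exception. The size of the difference was uneven, from about 11.5-fold for Tph1 to 1.47-fold for Sst, and 4 members (Chga, Chgb, Nts and Tph1) had tdTom+ and tdTom− ranges that did not overlap, against 15.3% of all genes tested that did so in this direction. A log2 fold change of −1 or lower with a call was reached by 7 members and 9.16% of all genes tested. These are libraries of whole populations, so fewer enteroendocrine cells and less of each mRNA per cell cannot be told apart.

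**Figure D1:**
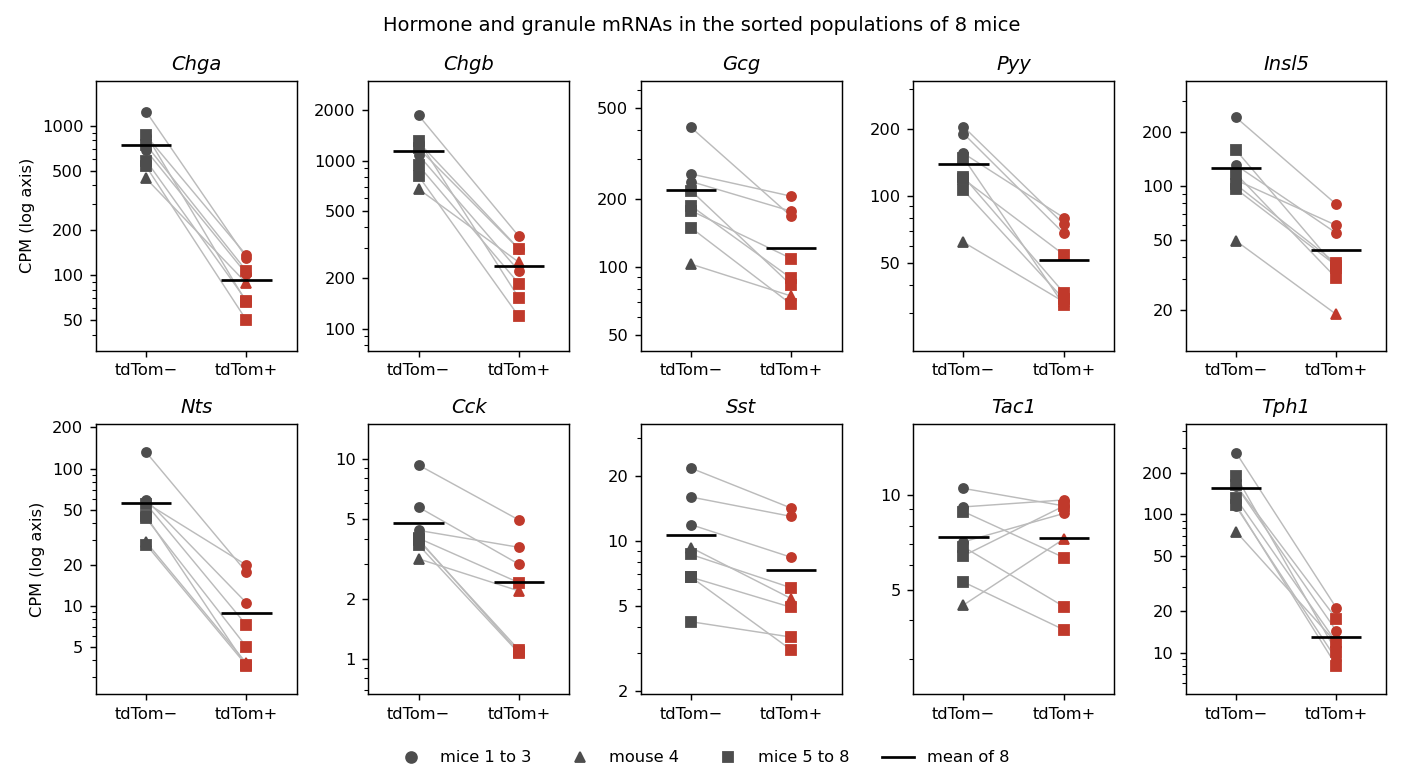
Normalised counts (CPM, log axes that differ between panels) of the 10 mRNAs in the tdTom− and tdTom+ samples of 8 mice. Grey lines join the samples of a mouse, marker shapes give the number series of the mouse labels and black bars are means of 8. Every line falls from left to right except in the Tac1 panel, where 4 fall and 4 rise.

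The granins were the most abundant members in tdTom− cells. All 10 are protein-coding genes, and no other gene of the files overlapped their spans. Chga (ENSMUSG00000021194, GRCm38 chromosome 12, 102554969 to 102565027, plus strand) encodes chromogranin A, a structural protein of dense-core granules that is used as a general marker of enteroendocrine cells. Its tdTom− samples ranged from 444 to 1243 CPM with a median of 715, and its tdTom+ samples from 50.1 to 136 CPM with a median of 95.4. The highest tdTom+ sample was thus well below the lowest tdTom− sample. Chga fell by 3.00 ± 0.12 (SE) on the log2 scale, to 12.5% of its tdTom− level (edgeR, adjusted p = 4.07e-13).

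Chgb (ENSMUSG00000027350, chromosome 2, 132781278 to 132795079, plus strand) encodes chromogranin B, the second large granin of these granules. It ranged from 677 to 1859 CPM in tdTom− cells, median 1131, and from 118 to 354 CPM in tdTom+ cells, median 234. The ranges were apart here too, but Chgb kept more of its level than Chga. Its log2 fold change was −2.31 ± 0.13 (SE), which leaves 20.2% of the tdTom− level (edgeR, adjusted p = 3.79e-11). The difference between the granins was small but was seen in every mouse: the within-mouse log2 ratio of Chga was 0.69 below that of Chgb on average (SD 0.15, 8 of 8 mice, exact sign-flip permutation test, two-sided, adjusted p = 0.0103). Per kilobase of exon, the Chgb to Chga ratio was 1.03 to 1.10 in tdTom− samples and 1.48 to 1.92 in tdTom+ samples.

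Tph1 (ENSMUSG00000040046, chromosome 7, 46647130 to 46672537, minus strand) encodes tryptophan hydroxylase 1, the rate-limiting enzyme of serotonin synthesis in enterochromaffin cells. Of the members it had the lowest fold change. Tph1 was at 75.0 to 279 CPM in tdTom− cells, median 145, and at 8.07 to 21.1 CPM in tdTom+ cells, median 11.9. No tdTom+ sample came near the lowest tdTom− sample, that of mouse 4. Its log2 fold change of −3.52 ± 0.12 (SE) leaves 8.71% of the tdTom− level (edgeR, adjusted p = 3.35e-14). The within-mouse ratio of Tph1 was lower than that of Chga in 8 of 8 mice, by 0.52 on the log2 scale (SD 0.22, exact sign-flip permutation test, two-sided, adjusted p = 0.0103).

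Tac1 (ENSMUSG00000061762, chromosome 6, 7554879 to 7565834, plus strand) encodes the precursor of substance P and neurokinin A, which enterochromaffin cells can make beside serotonin, and which enteric neurons make as well. In contrast to Tph1, it did not separate the populations. Tac1 ranged from 4.47 to 10.5 CPM in tdTom− cells, median 6.97, and from 3.73 to 9.65 CPM in tdTom+ cells, median 7.99. Those ranges overlap almost entirely, with the tdTom+ sample lower in 4 mice and higher in 4. The fitted log2 fold change was −0.00 ± 0.14 (SE; edgeR, adjusted p = 0.995). Inverting the exact sign-flip test gave a 95.3% interval of −0.49 to 0.43 for the mean within-mouse log2 ratio of −0.02. An interval of that width, at 73 to 230 counts per library, does not show equal levels. The Tac1 ratio was above the Tph1 ratio in 8 of 8 mice, by 3.50 on the log2 scale (SD 0.29, exact sign-flip permutation test, two-sided, adjusted p = 0.0103). Per kilobase, Tac1 stood at 0.0392 to 0.0738 of the level of Tph1 in tdTom− samples and at 0.472 to 1.05 of it in tdTom+ samples.

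The mRNAs of L-cell hormones were all lower in tdTom+ cells but overlapped between the groups. Gcg (ENSMUSG00000000394, chromosome 2, 62474530 to 62483650, minus strand) encodes proglucagon, which L cells cleave to the glucagon-like peptides. Gcg ranged from 103 to 412 CPM in tdTom− cells, median 202, and from 68.5 to 205 CPM in tdTom+ cells, median 99.2. In 4 of the 8 tdTom+ samples Gcg exceeded the lowest tdTom− sample, that of mouse 4. Within mice it was lower in tdTom+ cells every time, at 55.6% of the tdTom− level (log2 fold change −0.85 ± 0.11 SE; edgeR, adjusted p = 1.60e-06).

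Pyy (ENSMUSG00000017311, chromosome 11, 102106676 to 102107832, minus strand) encodes peptide YY, which slows gut transit and curbs feeding. Pyy ranged from 62.1 to 204 CPM in tdTom− cells, median 135, and from 32.5 to 79.9 CPM in tdTom+ cells, median 45.8. Only the tdTom− sample of mouse 4 fell within the tdTom+ range. The log2 fold change was −1.42 ± 0.11 (SE), or 37.3% of the tdTom− level (edgeR, adjusted p = 2.43e-09).

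Insl5 (ENSMUSG00000066090, chromosome 4, 103017872 to 103026842, minus strand) encodes insulin-like peptide 5, a hormone of distal L cells. It ranged from 49.2 to 243 CPM in tdTom− cells, median 113, and from 19.0 to 78.9 CPM in tdTom+ cells, median 36.2. Again the only overlap came from the tdTom− sample of mouse 4. Its log2 fold change of −1.52 ± 0.10 (SE) leaves 34.9% (edgeR, adjusted p = 6.26e-10). Insl5 and Pyy moved by similar amounts, with a mean difference between their within-mouse log2 ratios of 0.09 and an interval of −0.12 to 0.32 (exact sign-flip permutation test, two-sided, adjusted p = 0.328). Gcg held more of its level than either: its ratio exceeded that of Pyy in 8 of 8 mice by 0.58 on the log2 scale (SD 0.26, exact sign-flip test, adjusted p = 0.0103) and that of Insl5 in 7 of 8 by 0.67 (SD 0.38, exact sign-flip test, adjusted p = 0.0201). As a result the Pyy to Gcg ratio per kilobase was 1.09 to 2.03 in tdTom− samples and 0.924 to 1.19 in tdTom+ samples.

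Nts (ENSMUSG00000019890, chromosome 10, 102481760 to 102490418, minus strand) encodes neurotensin, a peptide made by a part of the L cells and by cells of the lower small intestine. Its levels were 28.0 to 132 CPM in tdTom− cells, median 50.2, and 3.64 to 19.8 CPM in tdTom+ cells, median 6.12. The groups did not overlap, and mouse 1 stood highest among the tdTom− samples. Nts fell by 2.75 ± 0.16 (SE) on the log2 scale, to 14.9% of its tdTom− level (edgeR, adjusted p = 4.03e-11). Its fold change lay between those of Chga and Chgb. The within-mouse ratio of Nts was below that of Gcg by 1.94 (SD 0.46), below that of Pyy by 1.36 (SD 0.51) and below that of Insl5 by 1.27 (SD 0.39), each in 8 of 8 mice (exact sign-flip permutation test, two-sided, adjusted p = 0.0103 for each). Against Chga the difference was not resolved, with an interval of −0.71 to 0.31 for Chga minus Nts (exact sign-flip test, adjusted p = 0.336).

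Cck and Sst were scarce members. Cck (ENSMUSG00000032532, chromosome 9, 121489825 to 121495689, minus strand) encodes cholecystokinin, a hormone of I cells that are rare in colon. Cck was at 3.17 to 9.34 CPM in tdTom− cells, median 3.99, and at 1.07 to 4.96 CPM in tdTom+ cells, median 2.30, which is 18 to 88 counts per tdTom+ library. The overlap came from mice 1 and 3, whose tdTom+ samples exceeded the lowest tdTom− sample. Its log2 fold change was −1.03 ± 0.17 (SE), or 48.9% (edgeR, adjusted p = 3.83e-05).

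Sst (ENSMUSG00000004366, chromosome 16, 23889581 to 23890844, minus strand) encodes somatostatin, the inhibitory peptide of D cells. Sst ranged from 4.21 to 21.8 CPM in tdTom− cells, median 8.98, and from 3.11 to 14.2 CPM in tdTom+ cells, median 5.72. Mice differed from each other more than the populations did, and 6 of the 8 tdTom+ samples lay above the lowest tdTom− sample. Within mice, Sst was lower in tdTom+ cells 8 times of 8, by 0.23 to 1.10 on the log2 scale (log2 fold change −0.56 ± 0.09 SE, 67.9% of the tdTom− level; edgeR, adjusted p = 4.15e-05). Without the mouse as a block the estimate was −0.55 ± 0.33 (SE) and was not called (edgeR, adjusted p = 0.158). Sst was the only member whose call depended on the pairing, and without it 8 members were lower beside 25.5% of all genes tested.

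**Figure D2:**
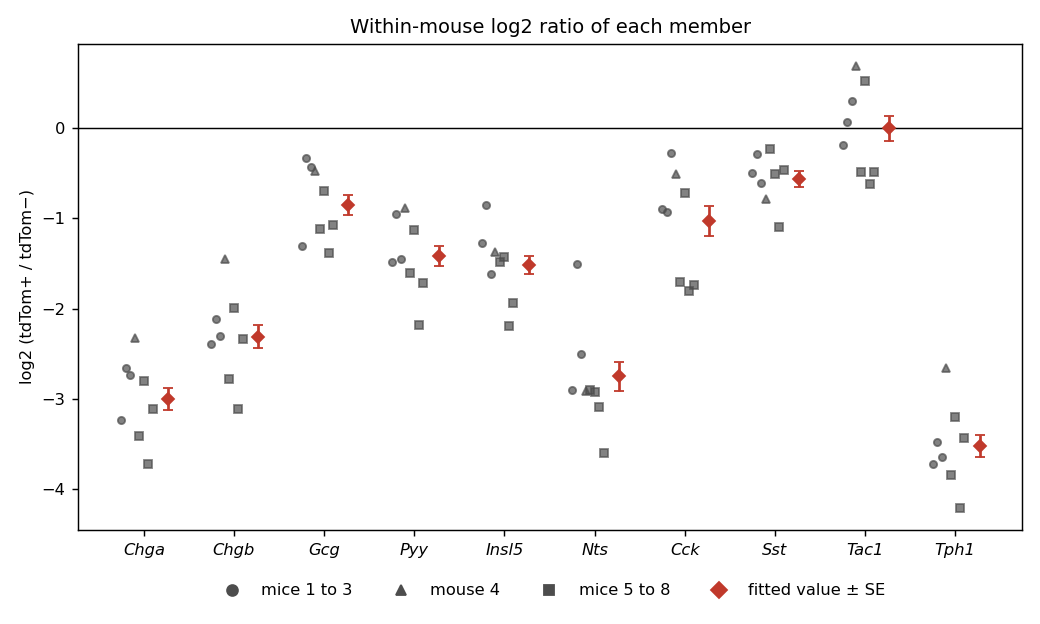
Within-mouse log2 ratio of tdTom+ to tdTom− for each member. Grey markers are single mice, shaped by number series, and red diamonds with bars are the fitted log2 fold changes ± SE, which run from −3.52 for Tph1 to −0.00 for Tac1.

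Compared pair by pair, 37 of the 45 pairs of members differed in their within-mouse log2 ratio at an adjusted p under 0.05 (exact sign-flip permutation test over 8 mice, two-sided, Benjamini-Hochberg over 45 pairs), and 34 pairs did so the same way in all 8 mice. With 8 mice the smallest p is 0.00781, which becomes 0.0103 after adjustment. The 8 pairs that did not pass were Chga with Nts, Chgb with Nts, Gcg with Cck, Gcg with Sst, Pyy with Insl5, Pyy with Cck, Insl5 with Cck, and Cck with Sst. Their intervals do not show equal change. For Cck minus Sst the interval was −1.09 to 0.07, and for Chgb minus Nts it was −0.14 to 1.09. For Insl5 minus Cck it was −0.87 to −0.02, with negative values only, and for Pyy minus Cck it was −0.72 to −0.00. The intervals are not adjusted for the number of pairs, whereas the threshold is.

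Several members shared the mouse in which their within-mouse ratio was lowest or highest. Where such extremes fell over all genes tested was not counted, so they are not shown to be particular to the members. Mouse 7 had the lowest within-mouse ratio for 9 of the 10 members and mouse 8 for Nts, while mouse 4, with the deepest tdTom− library, had the highest ratio for 5 (Chga, Chgb, Pyy, Tac1 and Tph1). For Tac1 these extremes were −0.62 in mouse 7 and 0.69 in mouse 4. The tdTom− sample of mouse 4 also had the lowest level of the 8 for some markers of other cells, among them Muc2, Aqp8 and Dclk1. For Spdef the lowest was that of mouse 2, and for Car1 that of mouse 7. Of the 8 goblet cell markers, the lowest ratio fell in mouse 5 for 5, in mouse 6 for 2 and in mouse 7 for Muc2, and the highest fell in mouse 1 for 5 and in mouse 4 for 3 (Muc2, Spdef and Retnlb).

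Levels also differed between the number series. In tdTom+ samples, mice 1 to 3 lay above all 5 other mice for 6 of the 10 members (Gcg, Pyy, Insl5, Cck, Sst and Nts), and in tdTom− samples for 5 (Gcg, Pyy, Cck, Sst and Nts). The share of all genes tested that did so was not counted, so this is not shown to be particular to the members. Gcg in tdTom+ cells, for instance, was 167 to 205 CPM in mice 1 to 3, 74.5 CPM in mouse 4 and 68.5 to 109 CPM in mice 5 to 8. Chga, Chgb, Tac1 and Tph1 overlapped between the series in both populations. What the series stand for is not stated in the labels. All 9 calls held within mice 1 to 3 alone and within mice 5 to 8 alone. Log2 fold changes were −0.68 and −1.06 for Gcg, −0.73 and −1.49 for Cck and −2.30 and −3.15 for Nts in mice 1 to 3 and mice 5 to 8, and the difference between the series was not tested.

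Levels of different genes were compared per kilobase of exon. A single exon length per gene was used for all mice, so agreement between mice does not test that length. In mean CPM, which is not scaled by length, Tac1 (7.33) was above Cck (4.79) in tdTom− cells. The order in tdTom− cells was Chgb (417 ± 134 CPM per kb, SD, n = 8), Chga (396 ± 133), Pyy (219 ± 73.1), Insl5 (174 ± 78.4), Gcg (145 ± 62.0), Nts (47.7 ± 27.9), Tph1 (41.7 ± 16.8), Sst (17.8 ± 9.58), Cck (6.99 ± 2.90) and Tac1 (2.16 ± 0.602). Neighbours in this order overlapped in range, except Cck and Tac1, but Chgb exceeded Chga and Chga exceeded Pyy in each of the 8 mice. Insl5 exceeded Gcg in only 5 of 8.

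In tdTom+ cells the order was Chgb (85.4 ± 29.4 CPM per kb), Pyy (82.2 ± 31.7), Gcg (81.4 ± 35.5), Insl5 (60.4 ± 26.6), Chga (49.7 ± 16.6), Sst (12.2 ± 7.04), Nts (7.57 ± 5.52), Cck (3.54 ± 2.03), Tph1 (3.53 ± 1.21) and Tac1 (2.15 ± 0.677). Chga moved from the second place to the fifth, below 3 L-cell hormones, although Insl5 exceeded it in only 6 of 8 mice. Tph1 was seventh in tdTom− cells and level with Cck in tdTom+ cells, where Cck exceeded it in 4 of 8. The first 3 genes could not be ordered among themselves, since Chgb exceeded Pyy in 5 of 8 mice and Pyy exceeded Gcg in 4. Among all 15841 genes tested, Chga ranked 124 per kilobase in tdTom− cells and 1425 in tdTom+ cells.

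**Figure D3:**
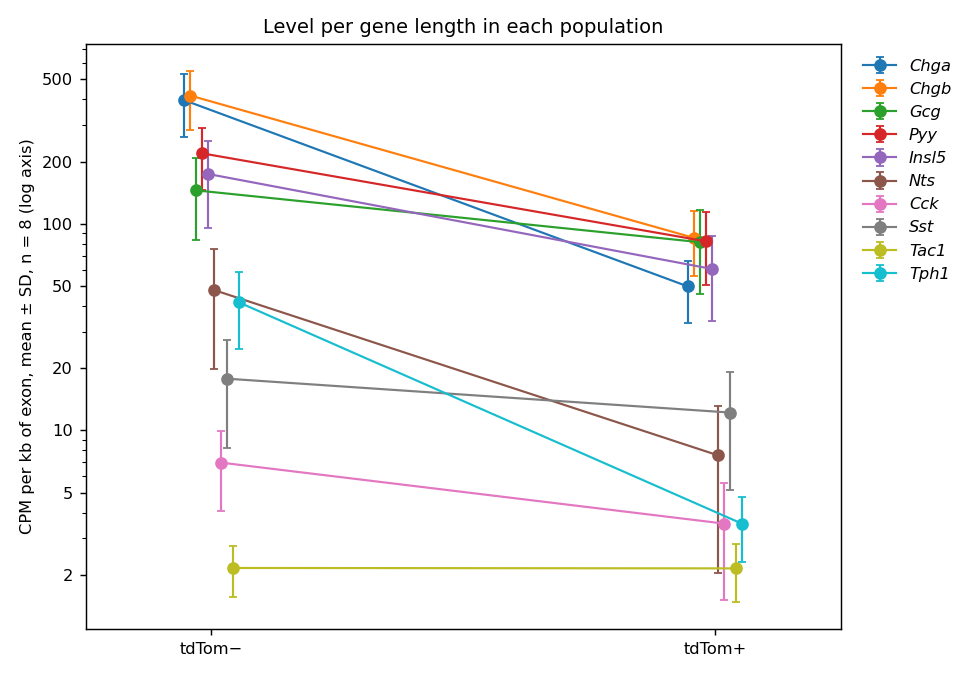
Mean level per gene length (CPM per kb of exon, log axis) of the 10 mRNAs in tdTom− and tdTom+ cells. Bars are SDs over 8 mice and points are shifted sideways so that they can be seen. Steep lines (Chga, Tph1, Nts) cross flatter ones (Gcg, Sst), and the Tac1 line is flat at 2.16 and 2.15.

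The makeup of the hormone transcripts differed accordingly. Summed per kilobase, the 10 members came to 1468 ± 469 CPM per kb in tdTom− cells and 388 ± 140 in tdTom+ cells (SD, n = 8). Chga made up 27.1 ± 2.70% of that sum in tdTom− cells and 13.0 ± 1.80% in tdTom+ cells, with the 8 values of each group wholly apart. The share of Gcg was 9.70 ± 1.13% in tdTom− cells and 20.6 ± 2.14% in tdTom+ cells. Sst, although lower in level, had a share of 1.24 ± 0.589% in tdTom− cells and 3.00 ± 0.813% in tdTom+ cells. The share of Tph1 was 2.82 ± 0.468% and 0.956 ± 0.255%. In raw counts, the members took 0.263 ± 0.0857% of all reads in tdTom− libraries and 0.0570 ± 0.0184% in tdTom+ libraries.

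Other genes linked to enteroendocrine cells or their products are given from 6 lists of 84 genes. The lists include receptors for the members' products and genes not confined to enteroendocrine cells, such as Maoa, Foxa1 and Foxa2. Their pooled counts therefore do not describe enteroendocrine cells alone. Of the 84 genes, 53 passed the filter: 32 were lower in tdTom+ cells, 10 were higher and 11 were not called, with a median log2 fold change of −0.85, beside 0.00 for all genes tested. Over all genes tested 28.9% were lower and 28.4% were higher, and the counts of each list stand beside those shares.

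Among 16 other gut peptides only 4 passed the filter. Ppy, pancreatic polypeptide, was lower by 4.11 ± 0.24 (SE) on the log2 scale, at 11.0 ± 5.44 CPM in tdTom− cells and 0.647 ± 0.562 CPM in tdTom+ cells (SD, n = 8; edgeR, adjusted p = 5.23e-11). Iapp, which encodes amylin, and Sct, which encodes secretin, were also lower, with log2 fold changes of −3.92 and −2.07. Ghrl, the ghrelin gene, was higher instead (log2 fold change 2.34 ± 0.31 SE, in 8 of 8 mice; edgeR, adjusted p = 3.52e-06), but at 0.291 ± 0.220 CPM and 1.44 ± 0.646 CPM it rests on 2 to 42 counts per library. Npy and Galp had no count in any library.

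Of 14 tested genes for granule assembly and prohormone processing, 10 were lower and 3 higher. Resp18, a protein of dense-core granules, had the lowest log2 fold change of the list at −4.03 ± 0.11 (SE), just below Pcsk1n, an inhibitor of prohormone convertase 1, at −3.93 ± 0.10. Pcsk1 itself, the convertase that cleaves proglucagon to glucagon-like peptides, was higher in tdTom+ cells by 1.52 ± 0.08 (SE) in 8 of 8 mice (edgeR, adjusted p = 8.84e-12). Ptprn2, a phosphatase-like granule membrane protein, was the highest of the list at 2.62 ± 0.15, whereas its relative Ptprn was lower at −2.90 ± 0.13. Rph3al, which acts in granule exocytosis, was higher by 0.72 ± 0.06. Scgn was not called.

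Of 7 tested genes of serotonin handling, 6 were lower in tdTom+ cells, and Qdpr was not called. Maoa, which degrades serotonin and is not confined to enterochromaffin cells, had the lowest value at −2.47 ± 0.08 (SE; edgeR, adjusted p = 3.97e-14). The decarboxylase Ddc (−1.11 ± 0.06), the vesicular transporter Slc18a1 (−1.38 ± 0.13) and Lmx1a, a transcription factor of enterochromaffin cells (−1.47 ± 0.18), were lower too. The SD over tdTom− samples was 9.94% of the mean for Ddc and 16.2% for Maoa. It was 33.0% for Slc18a1, 37.2% for Lmx1a and 40.4% for Tph1. How much of the Ddc mRNA comes from enterochromaffin cells was not tested.

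Of 13 transcription factors of the lineage, 3 were higher and 3 lower, no larger shares than the 28.4% and 28.9% of all genes tested. Neurog3, which starts the enteroendocrine program, was higher in tdTom+ cells by 1.54 ± 0.15 (SE) in 8 of 8 mice (edgeR, adjusted p = 6.16e-08), as were Foxa2 (1.32 ± 0.07) and Foxa1 (0.84 ± 0.05), which goblet cells also use. Neurod1, a target of Neurog3, was lower (−1.10 ± 0.17; edgeR, adjusted p = 1.59e-05), as were Pax6 and Fev. The other 7 of the 13 were not called, among them Insm1.

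Of 8 tested sensors, the short-chain and long-chain fatty acid receptors Ffar2 (3.16 ± 0.10 SE) and Ffar4 (2.86 ± 0.09 SE) were higher in tdTom+ cells, and 5 were lower. Ffar3, the other short-chain fatty acid receptor of L cells, had the lowest value at −1.97 ± 0.24 (SE), and the mechanosensitive channel Piezo2 of enterochromaffin cells was at −1.64 ± 0.13. Trpa1 had no count. Among 7 tested receptors for the members' products, 5 were lower, led by the somatostatin receptor Sstr1 at −2.95 ± 0.15 (SE; edgeR, adjusted p = 1.11e-11). Sstr2 was higher at 0.54 ± 0.12 (SE; edgeR, adjusted p = 8.61e-04), a call lost without the mouse as a block (0.52 ± 0.21 SE; edgeR, adjusted p = 0.0333) and within either number series. Npy4r, Ntsr1 and Tacr3 had no count.

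**Figure D4:**
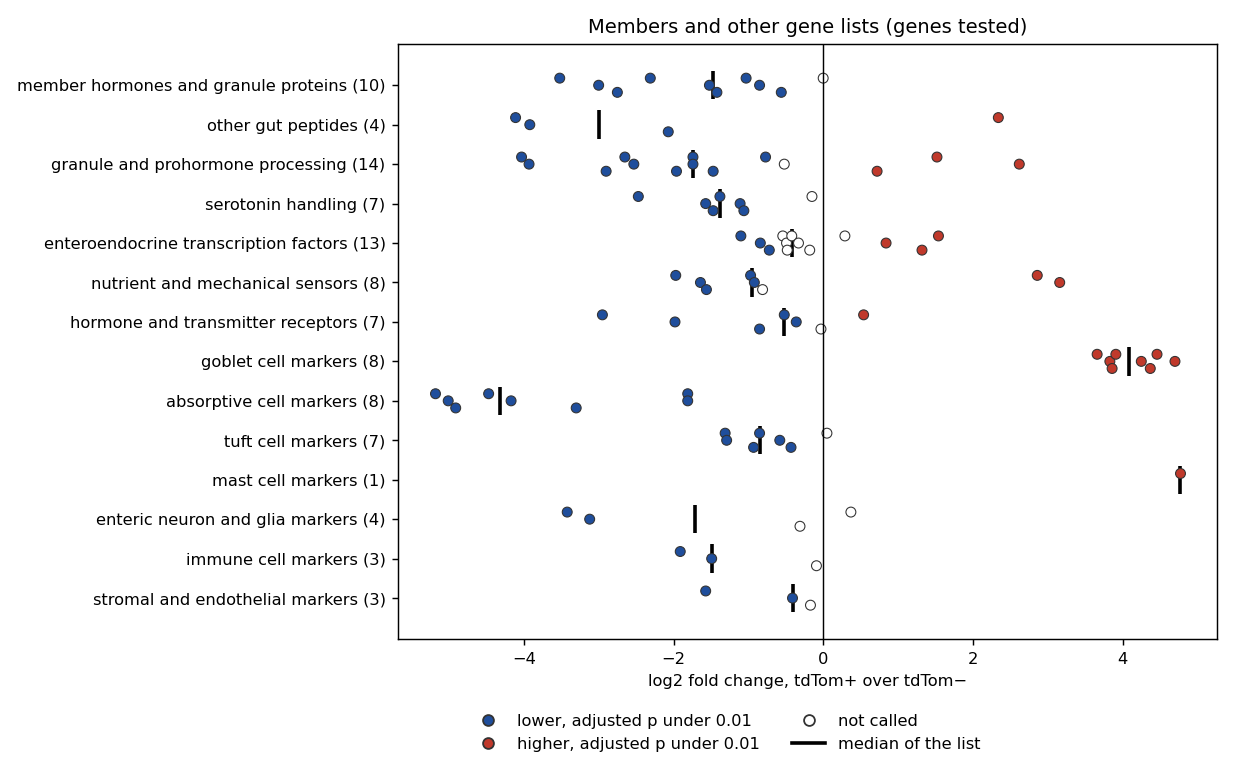
Log2 fold change of tdTom+ over tdTom− for every tested gene of the members, the 6 other enteroendocrine lists and 7 lists of cell type markers, with the number tested in brackets. Blue and red points passed an adjusted p under 0.01, open points did not, and black bars are list medians. Members lie at or left of 0, as do the serotonin handling genes, while the 5 other enteroendocrine lists hold points on both sides.

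Several members are also made outside the epithelium, so markers of other cells were counted. Of 11 enteric neuron and glia markers, 4 passed the filter. The list summed to 5.91 to 16.8 CPM in tdTom− cells and 5.57 to 10.3 CPM in tdTom+ cells, with Elavl3 (−3.42 ± 0.40 SE) and Uchl1 (−3.12 ± 0.27 SE) lower. Tph1 is made by mast cells too. Of 9 mast cell markers, Tpsab1 and Ms4a2 had no count and only Cma1 passed the filter, at 0.401 ± 0.280 CPM in tdTom− cells and 11.4 ± 3.07 CPM in tdTom+ cells (log2 fold change 4.77 ± 0.22 SE). Of those under the filter, Tpsb2 had 19 counts over the 8 tdTom− libraries and 119 over the 8 tdTom+ libraries, Mcpt1 had 37 and 6, Mcpt2 had 27 and 0, and Cpa3, Mcpt4 and Fcer1a had at most 2 in either. The 7 immune markers summed to 10.3 to 34.7 CPM in tdTom− and 6.02 to 12.4 CPM in tdTom+ cells, where Lyz2 (−1.91 ± 0.24 SE) was the lowest called. For 8 stromal and endothelial markers the sums were 7.02 to 9.23 CPM and 4.85 to 6.31 CPM, with Pecam1 (−1.57 ± 0.16 SE) the lowest called. Only 3 of these 8 passed the filter. Over the tdTom− and tdTom+ libraries, Cdh5 had 1 and 0 counts, Col1a2 4 and 1, and Col3a1 3 and 1. Pdgfra had 19 and 3, and Col1a1 had 27 and 39. Tuft cell markers summed to 93.1 to 161 CPM and 51.1 to 108 CPM, with 6 of 7 tested lower. The part of these cells, and of the goblet and absorptive cells, in the differences between hormone levels was not tested.

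Genes whose variation between mice was most like that of each member were found from log2 CPM after the mean of each population was subtracted, over 16 samples and 14645 genes with a mean of at least 1 CPM. Samples of a mouse and of a number series are not independent, so these are descriptions. Chga and Chgb were each other's nearest gene (r = 0.97), followed for Chga by Neurod1 (0.93) and Lmx1a (0.92) and for Chgb by Insm1 (0.97) and Ret (0.93). The nearest genes of Gcg were Scg5 (0.95), Pyy (0.94) and Nts (0.93), and those of Pyy were Cpe (0.95), Gcg (0.94) and Scg5 (0.94). Scg5 and Cpe encode a chaperone and a carboxypeptidase of prohormone processing. Nts was nearest to Gcg (0.93), Sct (0.92) and A130010J15Rik (0.89). Tph1 was nearest to Mapk8ip2 (0.93), Efcab1 (0.91) and Ptprn (0.91), and Tac1 to Aplp1 (0.90), Vim (0.89) and Chgb (0.89). No other member was among the nearest 3 genes of Tph1, nor of Insl5 (Lyplal1 0.92, Lsm1 0.91, Tvp23b 0.88), Cck (Rgs4 0.93, Esam 0.90, Lmx1a 0.89) or Sst (2010320M18Rik 0.91 and Ap4s1 0.89 among them).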

How the data were processed

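Libraries were stranded mRNA libraries read from 1 end. Alignment to GRCm38 used TopHat2. The authors deposited raw counts per gene, which per the file headers are primary alignments on exons of the reverse strand counted with featureCounts 1.5.0-p1, and did not normalize them. The submitters' processing notes name TopHat2 2.1.1, Subread 1.5.2, DESeq2 1.14.1 and GRCm38.p3. Groups and the pairing by mouse number came from the sample labels. The members and all gene lists were chosen with earlier results of these data known.

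The populations were compared by edgeR's quasi-likelihood test (version 4.0.16, R 4.3.3) after filterByExpr and TMM scaling, with the mouse as a block, at a Benjamini-Hochberg adjusted p under 0.01 over 15841 genes. The study's methods use DESeq2 and name no mouse term. Both samples of a mouse are from 1 animal and deviated together from their group means (correlations of at least 0.22 within mice and at most 0.17 between mice). In counts simulated for this comparison over 15737 genes, 100 of 100 genes changed by 1 and 100 of 100 changed by 2 on the log2 scale were recovered, with 4 false calls. Only these 200 genes were changed, far fewer than were called in the data. They were drawn from genes above a set mean CPM, so recovery of scarce genes such as Cck was not tested. Log2 CPM used a prior count of 2. Levels per length used the exon lengths of the files. Pairs of members were compared by an exact sign-flip permutation test over 8 mice. Intervals invert that test. Alternatives were no replicate block, RLE and upper-quartile scaling, DESeq2 1.42.0, limma-voom 3.58.1, other filters, abundant genes taken out, each mouse left out, single number series and an adjusted p of 0.05. In each list the called genes with the highest and lowest fold change and the markers with no count were named, and other list genes were named after their values were seen. A few genes this rule would name are not reported here. Symbols came from GENCODE M21, which held 44585 of the 45513 genes, and promoter sequences from RefSeq (GRCm38.p6). Protein sequences were not used here. Libraries within a group all differed by more than counting noise (chi-square per gene of at least 11.7, where 1 is noise). Other steps used scipy 1.17.1, pandas 2.3.3 and numpy 2.4.6 in Python 3.11.15.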

Additional observations from a re-analysis of the deposited data

How the results depend on the processing

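Under the alternatives, the 9 called members had 171 log2 fold changes, all of them negative. Among these, the alternative of an adjusted p under 0.05 repeats the estimates of the main fit. The only call lost was that of Sst without the replicate block (−0.55, edgeR, adjusted p = 0.158), where 8 members were lower in place of 9. The pairing by mouse changed no other call among the members. Without it, Gcg and Cck passed the threshold of 0.01 only narrowly (edgeR, adjusted p = 0.00857 and 0.00729). Tac1 was not called under any of its 19 alternatives, with log2 fold changes between −0.24 (mice 5 to 8 only) and 0.08. With a mouse left out, 9 members were lower and 0 higher each time. In the 6 other enteroendocrine lists, leaving out a mouse gave 31 to 36 genes lower (36 without mouse 4) and 10 higher, and the other alternatives gave 24 (at least 10 counts in every sample, which tests fewer genes) to 42 (no filter) lower and 9 or 10 higher; without the replicate block 29 were lower and 9 higher, as Gpr119, Npy1r, Npy2r and Sstr2 lost their calls there, and among marker genes so did Avil and Lyz2. Of 1631 values of all listed genes that are not members, 28 lost and 22 gained a call. Of pairs of members, 35 to 38 of 45 differed with a mouse left out and 37 with a prior count of 0.5 or RLE size factors. No fold change of a member or other listed gene changed sign where the main fit or the alternative called it. That of Tac1, which was never called, lay on both sides of 0. RLE or upper-quartile scaling, or abundant genes taken out, moved the median log2 fold change of all genes by at most 0.02. All these scalings centre the bulk of the genes, so this median does not test the values of the members. Correlations between members across mice, and their alternatives, were planned and are not given, since mice 1 to 3 lay above the others for 5 members in tdTom− and 6 in tdTom+ cells, and the series hold too few mice. Among the members Cck had the fewest counts (18 to 88 per tdTom+ library), which limits the precision of its difference at this depth.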
